A study of Mus musculus with 6 samples.

Results

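The genes described here handle cholesterol in macrophages: 3 receptors of the cell surface that bind lipoproteins (Cd36, Msr1 and Scarb1), 2 cholesterol exporters (Abca1 and Abcg1), the nuclear receptor that switches the exporters on (Nr1h2), 3 proteins of the lysosome (Lipa, Npc2 and Npc1) and the enzyme that stores cholesterol as esters (Soat1). They were chosen as a named set with earlier results of these data known. Their rows were found through the symbols of their Ensembl gene identifiers, and all 10 were among the 16665 genes of the deposited table. All 10 also lay among the 10166 genes tested, which had a mean of at least 1 FPKM (fragments per kilobase of gene, scaled by sequencing depth). The cells were RAW 264.7, a line of mouse leukaemic cells widely used as a macrophage model. Both groups were transfected. A group of 3 libraries carries the genotype label miR-125b overexpression and the title word mimic, and a group of 3 carries the label miR-125b WT and the title word NC, read here as negative control. The labels do not give the arm of the microRNA in the mimic, its dose or the time after transfection, and they do not tell separate cultures from repeated libraries of 1 culture, so the p-values cover the spread between these libraries only, which may be technical. The title of the series joins miR-125b to atherosclerosis, the disease in which arterial macrophages fill with cholesterol.

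Macrophages in the artery wall take up oxidised and otherwise modified lipoproteins through scavenger receptors, which, unlike the LDL receptor, are not turned down when the cell is full of cholesterol. In the lysosome, acid lipase (Lipa) frees cholesterol from its esters, Npc2 picks it up in the lumen and hands it to Npc1 in the membrane, and from there it reaches the rest of the cell. Surplus cholesterol is either esterified again by Soat1 and kept in lipid droplets, which makes a foam cell, or exported by Abca1 to lipid-poor apolipoprotein and by Abcg1 to HDL particles, both under control of the liver X receptors. A microRNA acts on such genes by pairing the bases of its seed with sites in their 3′ untranslated regions (3′ UTRs).

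Mature miR-125b-5p is shown with bases 2 to 8, the seed, in capitals, together with the seed sites found in the longest annotated 3′ UTR of Scarb1 and Soat1, where capitals mark the site and small letters its neighbours. These are shown because the transfected microRNA could pair there with these mRNAs, if the mimic holds the 5p arm. Sites outside the 3′ UTR and shorter matches were not counted.
miR-125b-5p: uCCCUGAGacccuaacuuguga
Scarb1 8mer: tgcaaaaacaaCTCAGGGAccagggacaga
Scarb1 7mer-m8: gtggcaggcccCTCAGGGtccttattttt
Soat1 8mer: ccagggtctcgCTCAGGGAcagcaccctga
Soat1 7mer-A1: tctgtgctgtaTCAGGGAgtcatcatggc
The microRNA sequence is that of RefSeq on GRCm38.p6, where it is encoded by Mir125b-1 on chromosome 9 and by Mir125b-2 on chromosome 16. The letters searched, on the transcribed strand only, were CTCAGGGA for the 8mer, CTCAGGG for the 7mer-m8 and TCAGGGA for the 7mer-A1. A 7mer inside an 8mer was counted once, as the 8mer. In Scarb1 the sites lie on the minus strand at chr5:125277674-125277681, starting at base 185 of a 3′ UTR of 779 bases, and at chr5:125277293-125277299, starting at base 567 (GRCm38). In Soat1 they lie on the minus strand at chr1:156430483-156430490, starting at base 569 of 6534, and at chr1:156425748-156425754, starting at base 5305. The 8mer was present in each of the 3 annotated transcripts of Scarb1 that have a 3′ UTR and in both of the 2 of Soat1. No site was found in the longest 3′ UTR of the other 8 genes, and 1 of 3 transcripts of Abcg1 held a 7mer-A1. Of the 9314 tested genes with a 3′ UTR, 5.88% held an 8mer, 24% held any of these sites and 5.78% held 2 or more. A match is a run of letters, not evidence of pairing.

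Depth, recovered from the whole-number steps of low FPKM values, lay between 14.4 M and 16.8 M fragments per library. NC library 3 stood apart from the others of its group. It had 13266 genes above 0, against 15141 to 15470 in the other 5 libraries, and its median absolute difference from NC libraries 1 and 2 over all tested genes was 0.371 and 0.351 on the log2(FPKM + 1) scale, against 0.0852 between those libraries. Its differences from the mimic libraries were 0.219 to 0.288, where those of NC 1 and 2 from the mimic libraries were 0.245 to 0.2835. Mimic 3 also stood apart, to a lesser degree. It differed from mimic 1 and 2 by 0.193 and 0.2025, against 0.0994 between those libraries, and was the mimic library nearest to NC 3 (0.219). In 6629 of the 10166 tested genes (65.2%), and in 8 of the 10 genes described here, NC 3 lay nearer to the mimic mean than to the mean of NC 1 and 2. The 10 genes are therefore given with and without it, and the other named genes where leaving it out made them pass or moved the estimate by over 1.5 times. Fold changes also ran with the length and base composition of genes (Spearman's rho of 0.383 with exon length over 10137 genes and −0.549 with GC content over 10128 genes, a description across genes that share the same 6 libraries). For this reason the fold changes of the 10 genes are also given with that trend removed from each library, as are those of the other named genes where it moved them by over 1.5 times. All 8 macrophage markers checked were present, led by the lysozyme gene Lyz2 with a mean of 6602 FPKM. Their summed level was 7136 to 8616 FPKM in the NC and 6379 to 6649 FPKM in the mimic libraries, and the part of this in the fold changes was not tested. Most of that sum was Lyz2, with means of 7310 FPKM in the NC and 5894 FPKM in the mimic libraries. The mean of each marker was lower with the mimic, but hardly so in Csf1r (116.2 and 115.9 FPKM). Of 16 markers of fibroblasts, lymphocytes, epithelium and endothelium, 4 were in the table, and the sum of these stayed under 0.5 FPKM within each cell type and library. Fewer transcripts per cell and fewer cells with the transcript cannot be told apart in such bulk RNA.

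The levels of the 10 genes, compared per length in FPKM, fell into steps. Npc2 was the highest, with a mean over all 6 libraries of 78.9 FPKM and every library (66.0 to 102 FPKM) above every library of the next gene. Lipa (56.7 FPKM) and Soat1 (49.6 FPKM) followed, and their ranges overlapped. Next came Scarb1 (18.1 FPKM), Abcg1 (13.6 FPKM), Nr1h2 (11.6 FPKM) and Msr1 (8.51 FPKM), where each range overlapped that of its neighbour. Npc1 (4.84 FPKM) and Abca1 (4.08 FPKM) overlapped each other and lay below. Cd36 had the lowest level, with a mean of 1.66 FPKM and a range of 0.797 to 2.18 FPKM that met no other.

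The limma test sets each gene against its own spread, drawn toward that of genes at a similar level. By limma, 0 of the 10 passed an adjusted p of 0.05, as did 0 of all 10166 genes (0%). At an unadjusted p under 0.05 there were 2 of the 10, Cd36 lower and Npc1 higher, where 13.2% of all tested genes reached that level (7.96% higher and 5.26% lower). These were also the 2 genes in which the groups did not overlap, against 20.1% of all tested genes (12.6% with the mimic higher and 7.49% with it lower). A share of 2 in 10 is near that background for both measures. The point estimates were higher with the mimic in 6 genes and lower in 4. Their median log2 fold change was 0.14, beside 0.041 over all tested genes, and −0.025 beside 0.029 with the GC and length trend removed.

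**Figure D1:**
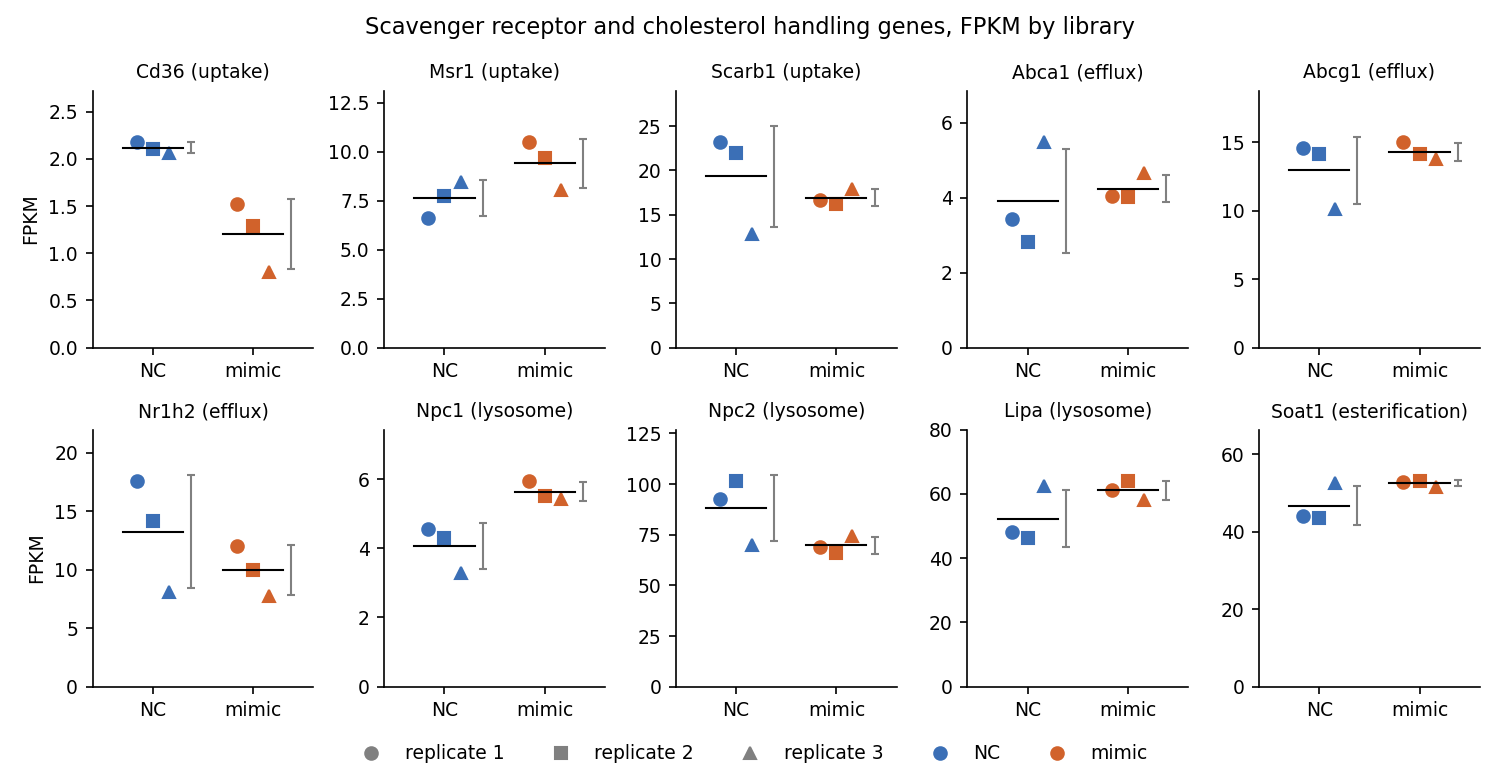
FPKM of each of the 10 genes in the 3 NC (blue) and 3 mimic (orange) libraries. Marker shapes give the replicate number, black lines the group mean and grey bars 1 SD on each side of it. Only in Cd36 and Npc1 do the groups not overlap, and NC replicate 3 (blue triangle) lies away from the other NC libraries in most of the other genes.

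Cd36 was the receptor with the clearest separation, at a low level. The gene (ENSMUSG00000002944; chr5:17781690-17888801, minus strand, GRCm38) encodes a class B scavenger receptor for oxidised LDL and long-chain fatty acids. It read 2.18, 2.10 and 2.06 FPKM in NC libraries 1, 2 and 3, and 1.52, 1.29 and 0.797 FPKM in mimic libraries 1, 2 and 3. All mimic values lay below all NC values, the NC values were close together, and mimic 3 was the lowest. The means were 2.12 ± 0.0582 and 1.20 ± 0.371 FPKM (SD, n = 3), so the mimic mean was 0.569 of the NC mean. The log2 fold change was −0.51 (SE 0.17, 95% interval −0.91 to −0.12), with a limma unadjusted p of 0.0181 and adjusted p = 0.332. It was −0.70 with the GC and length trend removed (limma adjusted p = 0.486), −0.53 without NC 3 (limma adjusted p = 0.0762) and −0.88 with both (limma adjusted p = 0.0539). Because 1 FPKM was added before the logarithm, the change of so low a gene is understated, and with 0.1 FPKM added it was −0.81 (limma adjusted p = 0.342). Only 44 to 127 fragments stood behind each value, and counting error alone amounts to 15.1% at the lowest of these.

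Msr1 (ENSMUSG00000025044; chr8:39581685-39642673, minus strand), the class A scavenger receptor for acetylated and oxidised LDL, had higher point estimates with the mimic. Its NC values were 6.64, 7.75 and 8.48 FPKM and its mimic values 10.5, 9.66 and 8.04 FPKM. The groups overlapped, since mimic 3 lay below NC 3. Its log2 fold change of 0.27 (SE 0.14, limma adjusted p = 0.457) was 0.0075 with the GC and length trend removed (limma adjusted p = 0.993), 0.34 without NC 3 (limma adjusted p = 0.104) and −0.11 with both (limma adjusted p = 0.681). Its direction thus turned in the last of these fits.

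Scarb1 (ENSMUSG00000037936; chr5:125277087-125341094, minus strand) encodes SR-BI, which binds HDL and moves cholesterol esters and cholesterol across the membrane in either direction. It is also one of the genes with an 8mer site shown above. Its NC values were 23.2, 22.0 and 12.8 FPKM and its mimic values 16.7, 16.2 and 17.9 FPKM. The 3 mimic libraries were close together, NC 1 and 2 lay above them and NC 3 lay below them. With all libraries the log2 fold change was −0.14 (SE 0.22, 95% interval −0.65 to 0.37, limma adjusted p = 0.791), and −0.23 with the GC and length trend removed (limma adjusted p = 0.787). Without NC 3, Scarb1 fell by 0.40 on the log2 scale (limma adjusted p = 0.0191), where 23.7% of all tested genes passed. Without NC 3 and with the trend removed it fell by 0.49 (limma adjusted p = 0.0345). It was then the only one of the 10 to pass, where 3.04% of all tested genes did. Without NC 1 its fold change was 0.0060 (limma adjusted p = 0.996). The size and direction thus rest on which NC library is kept.

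The exporters did not separate. Abca1 (ENSMUSG00000015243; chr4:53030787-53159895, minus strand), the Tangier disease transporter, read 3.43, 2.82 and 5.49 FPKM in the NC and 4.05, 4.01 and 4.65 FPKM in the mimic libraries. NC 3 was the highest of all 6, and NC 1 and 2 were the lowest. The log2 fold change of 0.13 (SE 0.21, limma adjusted p = 0.807) was −0.011 with the trend removed (limma adjusted p = 0.993) and 0.34 without NC 3 (limma adjusted p = 0.0855). With both it was 0.19 (limma adjusted p = 0.402). It turned to −0.036 without NC 2 (limma adjusted p = 0.973) and was 0.071 without NC 1 and 0.070 without mimic 3.

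Abcg1 (ENSMUSG00000024030; chr17:31057675-31117988, plus strand) had the smallest spread among the mimic libraries relative to its mean of the 3 efflux genes. It read 14.6, 14.1 and 10.1 FPKM with NC and 15.01, 14.1 and 13.8 FPKM with the mimic. NC 3 alone lay lower, and the other 5 libraries were close together. Between groups the log2 fold change was 0.15 (SE 0.15, 95% interval −0.21 to 0.51, limma adjusted p = 0.691). It was 0.17 with the GC and length trend removed (limma adjusted p = 0.696), −0.0058 without NC 3 (limma adjusted p = 0.967) and 0.078 with both (limma adjusted p = 0.601). Without NC 1 it was 0.24 (limma adjusted p = 0.773).

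Nr1h2 (ENSMUSG00000060601; chr7:44549616-44553951, minus strand), liver X receptor beta, senses oxysterols and turns on both exporters. Its NC values spread widely, at 17.6, 14.1 and 8.07 FPKM, and its mimic values were 12.1, 10.0 and 7.77 FPKM. NC 1 and 2 lay above every mimic library, while NC 3 lay among them. Its log2 fold change was −0.34 (SE 0.28, 95% interval −0.99 to 0.31, limma adjusted p = 0.609). It fell by 0.64 without NC 3 (limma adjusted p = 0.0475), and was −0.098 with the GC and length trend removed (limma adjusted p = 0.912) and −0.28 with both (limma adjusted p = 0.408). Other libraries moved it too, to −0.12 without NC 1 (limma adjusted p = 0.917) and −0.19 without mimic 3 (limma adjusted p = 0.816). At 60.6% its longest transcript had the highest GC content of the 10 genes. Liver X receptor alpha (Nr1h3), named here after its values were seen, was under the filter, with means of 0.454 FPKM in the NC and 0.315 FPKM in the mimic libraries.

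The pair of genes for cholesterol export from the lysosome pointed in opposite directions. Npc1 (ENSMUSG00000024413; chr18:12189692-12236400, minus strand), the membrane transporter lost in most cases of Niemann-Pick type C disease, read 4.56, 4.30 and 3.30 FPKM in the NC and 5.95, 5.51 and 5.43 FPKM in the mimic libraries. All mimic values were above all NC values, and NC 3 was the lowest, on the far side from the mimics. The means were 4.05 ± 0.666 and 5.63 ± 0.277 FPKM (SD, n = 3), a ratio of 1.39. The log2 fold change was 0.40 (SE 0.14, 95% interval 0.070 to 0.73), with a limma unadjusted p of 0.0239 and adjusted p = 0.337. It was 0.21 with the GC and length trend removed (limma adjusted p = 0.751), 0.29 without NC 3 (limma adjusted p = 0.0758) and 0.041 with both (limma adjusted p = 0.835). The estimate was thus over 1.5 times smaller once the trend was removed. Npc1 has 11317 bases of annotated exons, the most among the 10 genes, beside a median of 4252 over all tested genes.

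Npc2 (ENSMUSG00000021242; chr12:84754562-84773152, minus strand), the soluble carrier of the lysosomal lumen, pointed the other way. It read 92.6, 102 and 70.0 FPKM in the NC and 69.0, 66.0 and 74.3 FPKM in the mimic libraries. NC 1 and 2 were above all mimics and NC 3 was among them. Its log2 fold change was −0.32 (SE 0.16, 95% interval −0.68 to 0.047, limma adjusted p = 0.426). The estimate changed little with the GC and length trend removed (−0.29, 95% interval −0.55 to −0.019, limma adjusted p = 0.547). The limma unadjusted p was then 0.0389, where 8.63% of all tested genes were under 0.05. Npc2 fell by 0.47 without NC 3 (limma adjusted p = 0.0124) and stood at −0.38 with both (limma adjusted p = 0.0632). Without NC 2 it was −0.21 (limma adjusted p = 0.798).

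Lipa (ENSMUSG00000024781; chr19:34492318-34527474, minus strand), lysosomal acid lipase, read 48.1, 46.3 and 62.6 FPKM in the NC and 61.3, 64.1 and 58.0 FPKM in the mimic libraries. NC 1 and 2 were the lowest and NC 3 lay within the mimic range. The log2 fold change of 0.23 (SE 0.14, limma adjusted p = 0.498) was 0.36 without NC 3, where it passed (limma adjusted p = 0.0185). With the GC and length trend removed it was 0.031 (limma adjusted p = 0.927), and 0.051 without NC 3 as well (limma adjusted p = 0.685). Without NC 2 it was 0.15 (limma adjusted p = 0.833).

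Soat1 (ENSMUSG00000026600; chr1:156424525-156474331, minus strand), the acyltransferase that makes cholesterol esters and the other gene with an 8mer site, followed the pattern of Lipa. Its NC values were 44.1, 43.5 and 52.6 FPKM and its mimic values 52.8, 53.1 and 51.6 FPKM. The mimic libraries lay within 2 FPKM of each other, NC 1 and 2 lay below them and NC 3 among them. For Soat1 the log2 fold change was 0.17 (SE 0.11, 95% interval −0.097 to 0.44, limma adjusted p = 0.532). Soat1 rose by 0.26 without NC 3 (limma adjusted p = 0.0349), and was −0.038 with the GC and length trend removed (limma adjusted p = 0.904) and −0.042 with both (limma adjusted p = 0.729). The 2 genes with an 8mer site had point estimates of opposite sign as deposited, Scarb1 lower and Soat1 higher. With the GC and length trend removed both were below 0 (−0.23 for Scarb1 and −0.038 for Soat1), as they were without NC 3 as well (−0.49 and −0.042). The 95% intervals with the trend removed and all libraries kept included 0 (−0.72 to 0.25 for Scarb1 and −0.21 to 0.14 for Soat1). As deposited, the median log2 fold change of the 548 tested genes with an 8mer was 0.068, beside 0.019 for the 7079 with no site. Any part of the sites in these values was not tested.

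**Figure D2:**
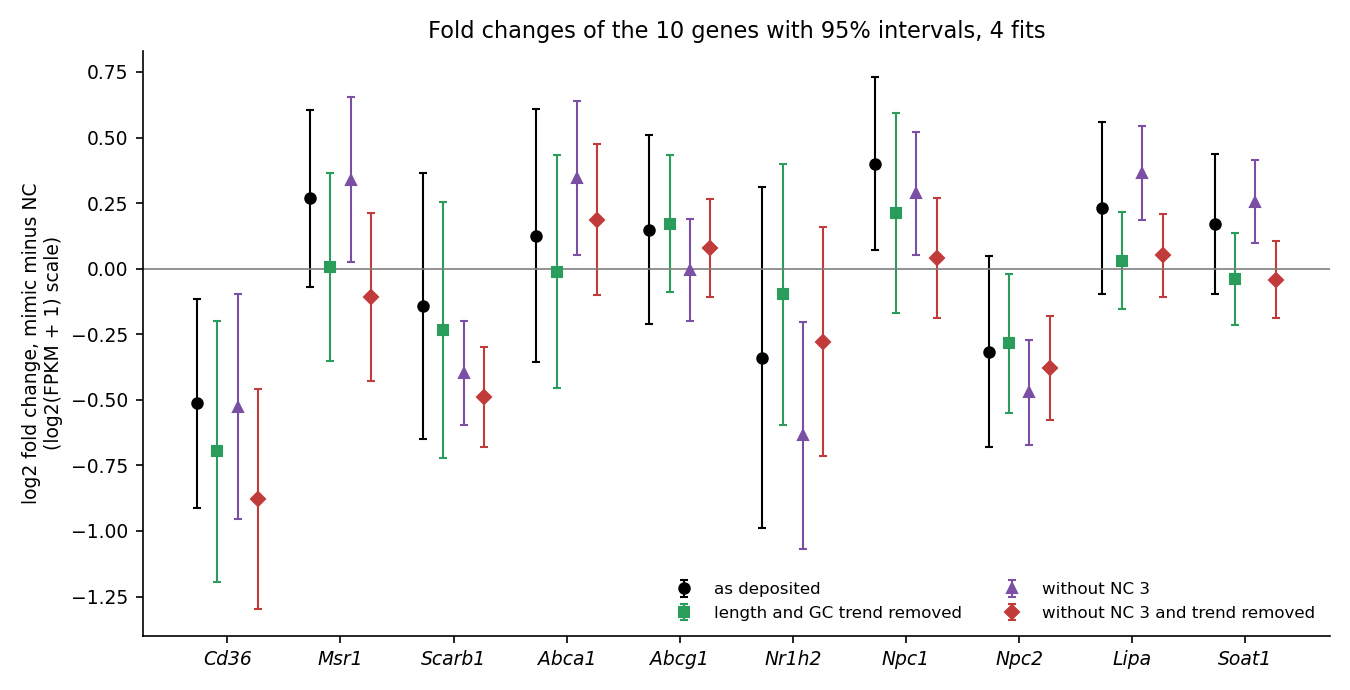
Log2 fold change (mimic minus NC, log2(FPKM + 1) scale) of the 10 genes with 95% intervals from limma, for the values as deposited (black circles), with the GC and length trend removed (green squares), without NC replicate 3 (purple triangles) and with both (red diamonds). The estimates of Cd36, Scarb1, Nr1h2 and Npc2 stay below 0 in all 4 fits, and of these the interval for the values as deposited excludes 0 only in Cd36. Those of Msr1, Lipa and Soat1 come close to 0 or cross it once the trend is removed. So does Abca1 with all libraries kept (−0.011), and Npc1 comes close to 0 with both changes (0.041).

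Leaving out NC 3 brought 5 of the 10 past an adjusted p of 0.05 by limma (Scarb1, Nr1h2 and Npc2 lower, Lipa and Soat1 higher), where 23.7% of all tested genes passed (11.6% higher and 12.2% lower). The groups then did not overlap in 9 of the 10, Abcg1 being the exception, where this held for 57.9% of all tested genes. In each of the 5 genes that passed, NC 3 itself lay nearer to the mimic mean than to the mean of NC 1 and 2, so the library left out did not share the difference. Cd36 and Npc1 were the genes of the 10 in which NC 3 lay nearer to the other NC libraries.

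Ratios between genes within one library are free of any factor that scales a whole library, and were computed for all 45 pairs of the 10 genes after their values had been seen. They used the values as deposited, so the GC and length trend remains in them. With that trend removed, the log2 fold change was 0.21 for Npc1, against 0.40 as deposited, and −0.29 for Npc2, against −0.32. In 13 pairs (28.9%) the groups did not overlap, beside 19.2% of all pairs among the 10090 tested genes above 0 in every library. Of these 13 pairs, 7 had Cd36 as the lower gene, and all but the pair of Npc2 and Abcg1 held Cd36 or Npc1. Cd36 and Npc1 were the genes whose groups did not overlap on their own, so these pairs are not separate results. Npc2 stood at 20.3, 23.6 and 21.2 times Npc1 in the NC libraries and at 11.6, 12.0 and 13.7 times in the mimic libraries. Here NC 3 lay between NC 1 and 2. The mean ratio went from 21.7 ± 1.705 to 12.4 ± 1.10 (SD, n = 3; exact permutation test, two-sided, p = 0.1, the smallest that 3 against 3 libraries can give). Msr1 stood at 3.05, 3.69 and 4.11 times Cd36 with NC and at 6.89, 7.47 and 10.1 times with the mimic, again with every mimic value above every NC value (exact permutation p = 0.1, two-sided). By contrast the ratio of Abcg1 to Abca1 was 4.25, 4.99 and 1.84 with NC and 3.71, 3.52 and 2.96 with the mimic, so the mimic values lay inside the NC range.

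**Figure D3:**
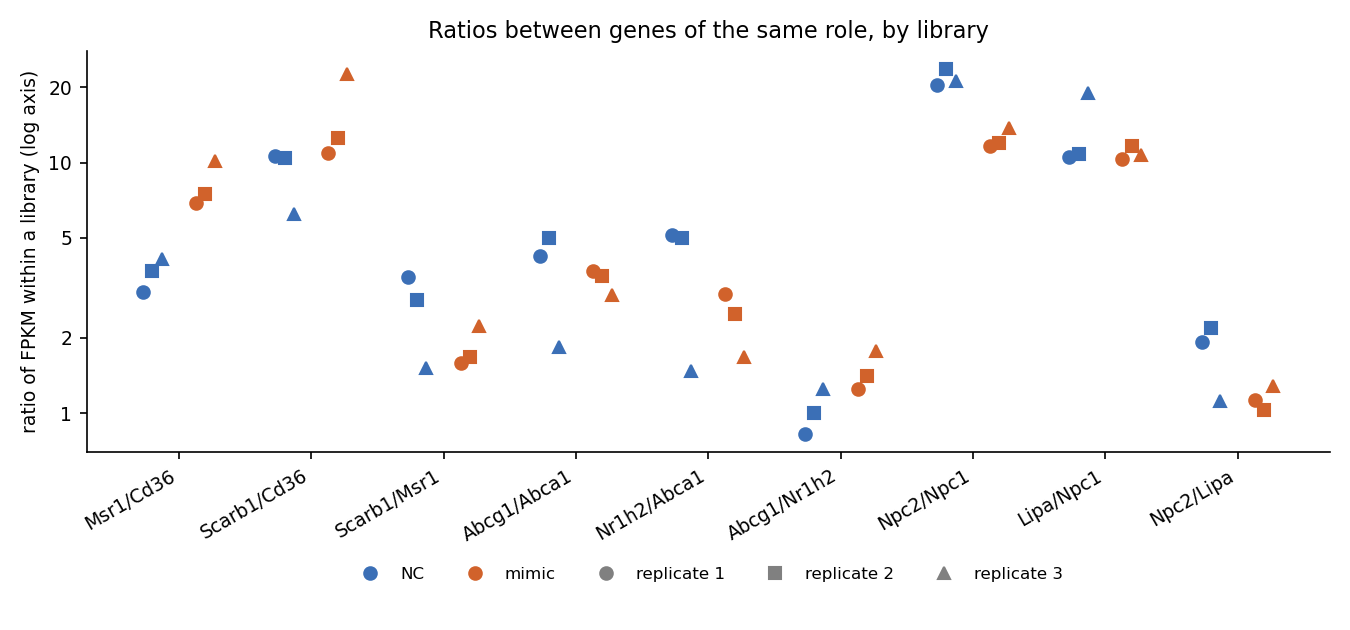
Ratio of the FPKM values of 2 genes within each library (log axis) for the 9 pairs of genes that share a role, in NC (blue) and mimic (orange) libraries, with the replicate number as marker shape. The groups are apart for Msr1/Cd36, Scarb1/Cd36 and Npc2/Npc1, and overlap in the other 6 pairs.

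Further genes of the same pathway were taken from 5 lists, whose 87 genes include the 10; 78 were in the table and 66 were tested. By limma 0 of them passed over all genes in any list. Counts at an unadjusted p are to be read against the 13.2% of all tested genes at that level (7.96% higher and 5.26% lower), and counts passing without NC 3 against 23.7%. Of 9 tested uptake receptors, 1 had an unadjusted p under 0.05, the lower Cd36 itself, and the median log2 fold change was −0.094 beside 0.041 for all tested genes. With the GC and length trend removed it was −0.064, beside 0.029. Without NC 3, 0 of the 9 passed as higher and 3 as lower. The lysosomal macrosialin Cd68, which also binds oxidised LDL, read 444, 419 and 298 FPKM with NC and 310, 284 and 324 FPKM with the mimic (−0.32, SE 0.17, limma adjusted p = 0.457). Its estimate was −0.13 with the trend removed, and without NC 3, which lay among the mimic values, it fell by 0.50 (limma adjusted p = 0.0108). With both changes it was −0.24 (limma adjusted p = 0.145). The collectin Colec12 stood at 0.23 (SE 0.15) and at 0.018 with the trend removed. For the lysosomal membrane protein Scarb2 the values were 0.15 (SE 0.14) as deposited, 0.045 with the trend removed and 0.017 without NC 3. The class A receptor Marco had no row in the table, and Olr1, the endothelial receptor for oxidised LDL, lay under the filter at 0.237 FPKM with NC and 0.319 FPKM with the mimic.

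In the list of efflux and liver X receptor genes 1 of 16, a higher one, had an unadjusted p under 0.05, beside 13.2% of all tested genes. The list median was −0.072, and 0.0094 with the trend removed. With the replicate numbers as a block there were 2 higher and 1 lower, where 16.5% of all tested genes were at that level. The additions, named after their values were seen, were Mylip and Pltp. Mylip stood at 0.43 (limma with the block, unadjusted p 0.0465, adjusted p = 0.295) and at −0.093 without NC 3. Pltp stood at −0.31 (limma with the block, unadjusted p 0.0279, adjusted p = 0.271), at −0.075 with the trend removed and at −0.066 without NC 3. Without NC 3, 1 passed as higher and 2 as lower. The nuclear receptor corepressor Ncor1, which holds such receptors silent, was the higher gene without the block, at 18.7, 18.8 and 23.2 FPKM with NC and 24.0, 24.1 and 27.2 FPKM with the mimic (0.30, SE 0.13, limma adjusted p = 0.376). All its mimic values were above all its NC values. Its estimate was 0.16 with the trend removed, and without NC 3 it rose by 0.40 (limma adjusted p = 0.0209). Both changes together gave 0.25 (limma adjusted p = 0.121). The coactivator Ncoa1 stood at 0.24 (SE 0.13), and at 0.16 with the trend removed. The retinoid X receptor Rxrb, a partner of the liver X receptors, stood at −0.23 (SE 0.14) and at −0.0095 with the trend removed. Without NC 3 Rxrb fell by 0.36 (limma adjusted p = 0.020), and with both changes it was −0.016 (limma adjusted p = 0.929).

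Among 19 genes of lysosomal cholesterol export and sterol transfer, 4 had an unadjusted p under 0.05, beside 13.2% of all tested genes. Of the 4, 3 were higher and 1 lower, beside 7.96% and 5.26% of all tested genes. The list median was −0.077, and 0.020 with the trend removed. With the replicate block 3 were higher and 0 lower, where 16.5% of all tested genes were at that level. Without NC 3, 3 passed as higher and 3 as lower. The higher ones were Npc1 and the oxysterol-binding proteins Osbp and Osbpl8, which carry lipids between membranes. Osbp read 15.8, 16.98 and 12.8 FPKM with NC and 19.9, 20.2 and 18.5 FPKM with the mimic, with the groups apart and NC 3 the lowest. Its log2 fold change of 0.36 (SE 0.13, limma adjusted p = 0.345) was 0.39 with the GC and length trend removed. Without NC 3 as well it was 0.33 (limma adjusted p = 0.069). Osbpl8 stood at 0.40 (SE 0.16), and at 0.12 with the trend removed. Without NC 3 it rose by 0.56 (limma adjusted p = 0.00552), and with both changes it was 0.12 (limma adjusted p = 0.324). The lower one was the lysosomal protease cathepsin D, Ctsd, at 243, 246 and 194 FPKM with NC and 174, 175 and 189 FPKM with the mimic (−0.33, SE 0.13, limma adjusted p = 0.359). Ctsd was at −0.11 with the trend removed, and without NC 3 it fell by 0.44 (limma adjusted p = 0.00988). With both changes it was −0.12 (limma adjusted p = 0.318). With the replicate block its unadjusted p by limma was 0.0528.

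Neither of the other lists had a gene at an unadjusted p under 0.05, other than Fabp5 with the replicate block (unadjusted p by limma 0.0324). For sterol esters and lipid droplets 15 genes were tested, with a median of −0.025, and 0.035 with the trend removed. Without NC 3, 1 of them passed as higher and 2 as lower. The droplet hydrolase Ldah stood at 0.20 (SE 0.13) and turned to −0.049 with the trend removed. The seipin gene Bscl2 stood at −0.21 (SE 0.15), and at −0.065 without NC 3. The acyl-CoA synthetase Acsl3 stood at 0.16 (SE 0.12), at 0.035 with the trend removed and at 0.096 without NC 3. For the PPAR axis and fatty acid handling 7 were tested, with a median of −0.12, and −0.10 with the trend removed. Without NC 3, 1 passed as higher and 1 as lower. The fatty acid binding protein Fabp5 stood at −0.36 (SE 0.20), from 32.1, 32.2 and 19.98 FPKM with NC to 21.9, 23.6 and 18.3 FPKM with the mimic, so that NC 3 lay among the mimic values. Without NC 3 it fell by 0.58 (limma adjusted p = 0.0167), and by 0.51 with the trend removed as well (limma adjusted p = 0.0474). The adiponectin receptors Adipor1 and Adipor2 stood at −0.19 (SE 0.11) and −0.17 (SE 0.16). Adipor1 was at −0.10 with the trend removed, and without NC 3 Adipor2 was at −0.33 (limma adjusted p = 0.0512).

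**Figure D4:**
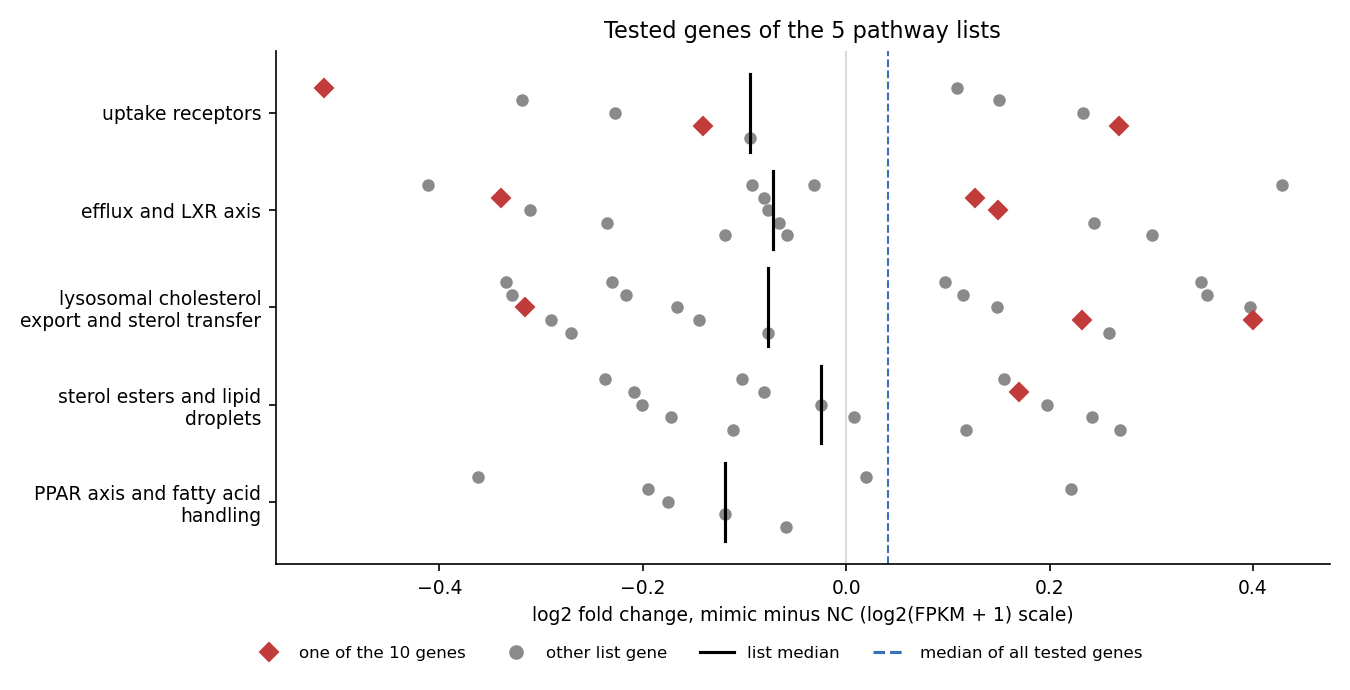
Log2 fold change (mimic minus NC, log2(FPKM + 1) scale) of every tested gene of the 5 pathway lists, with the 10 genes as red diamonds, other list genes as grey circles, list medians as black lines and the median of all tested genes as a dashed line. Each list has genes on both sides of 0, and the 5 medians lie between −0.12 and −0.025 for these values as deposited; with the GC and length trend removed, which is not plotted, 3 of them lie above 0.

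The genes whose pattern over the 6 libraries was most like that of Cd36, by Pearson's r of log2(FPKM + 1), were Tinf2 and Abcf3 (both r = 0.993) and Gpank1 (r = 0.988). For Npc1 they were Lrch3 (r = 0.998), Mau2 (r = 0.995) and Tns3 (r = 0.992). Over these 6 libraries, 42 of the 10166 tested genes had an r above 0.95 with Cd36 and 115 with Npc1, so the genes named are not alone in this.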

How the data were processed

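Per the labels' protocols, RNA of transfected RAW 264.7 cells was made into mRNA libraries with a SMARTer kit, 3 per group. The authors deposited one FPKM value per gene and library; the submitters' processing notes name the build mm10 and the tools HISAT2, fastp and DESeq2, with versions, annotation, counter, strand setting and filter not given in the sources used here. Without a stated strand setting, reads of overlapping antisense genes cannot be told apart. Symbols, positions and 3′ UTRs came from GENCODE (GRCm38, which mm10 names), where 16582 of 16665 identifiers were found.

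Genes with a mean of at least 1 FPKM were tested two-sided on the log2(FPKM + 1) scale with limma 3.58.1 (R 4.3.3), which let the variance follow the mean level, Benjamini-Hochberg adjusted over all 10166 genes, threshold 0.05. Depth was recovered from values up to 20 fragments, of which 98.5% to 99.0% were whole within 0.1 fragment; PCR copies are not independent molecules, so counting error is a lower limit. The trend on exon length and GC was removed per library with splines of 4 degrees of freedom. The code was tested on simulated data.

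Same-numbered libraries deviated together from their group means (r = 0.287, 0.183 and 0.339 for replicates 1, 2 and 3). Mimic 1 correlated slightly more with NC 2 (0.308), and deviations within a group cancel out, so the r values are not independent. Pairing by number is therefore uncertain. The main test treated the libraries as unpaired, and the numbers served as pairs only in the fits with the replicate block. Fits that left out NC 3 alone kept mimic 3. The members and lists were chosen with earlier results of these data known. Named were all 10 genes, the 3 others with the smallest p in each list, and the 3 genes most like the 2 members with the smallest p; genes named beyond this were chosen after their values were seen. Alternatives covered the pseudocount, filter, scaling, array weights, the replicate block, each library left out, the trend, and limma voom on recovered fragments. Array weights were estimated gene by gene, because the default estimate did not converge.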

Additional observations from a re-analysis of the deposited data

How the results depend on the processing

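Of the 10 genes, 0 passed limma (and 0 of all genes) with 0.1 FPKM added, no filter or a filter at 0.5, median-of-ratios or quantile scaling, the replicate block, voom, or the GC and length trend removed with or without the block. The block, fitted on the replicate numbers, changed no call at an adjusted p of 0.05 and left the members at an unadjusted p at 2. In the lists it moved Mylip, Pltp, Fabp5 and Ctsd across an unadjusted p of 0.05. With each library left out, the genes passing ranged from 0 to 2412 and members passing from 0 to 5, the highest without NC 3. Members at an unadjusted p under 0.05 ranged from 1 to 9 (5.55% to 39.3% of all genes), and members whose groups did not overlap from 2 to 9 (23.4% to 57.9%), or 5 without mimic 3 (37.1%). Array weights gave NC 3 a weight of 0.0908 and mimic 3 a weight of 0.339, against 3.44 for NC 2. With them 4808 genes (47.3%) and 9 members passed, all but Abcg1, with 9 at an unadjusted p (54.8% of all genes). Without replicate 3 of both groups 4377 genes (43.1%) and 8 members passed, 9 at an unadjusted p (52.3%), with 9 not overlapping (74.3% of all genes). With the trend removed and NC 3 left out 308 genes and 1 member passed, and 5 did not overlap (44.7% of all genes). With the trend removed and the replicate block 1 member was at an unadjusted p (14.8% of all genes). With the trend removed alone, the 2 members at an unadjusted p under 0.05 were Cd36 and Npc2, not Npc1 (8.63% of all genes). Median-of-ratios scaling gave 3, Cd36, Npc1 and Npc2 (13.2% of all genes).

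Directions turned as follows. With 1 library left out, Scarb1 ranged from −0.40 (without NC 3) to 0.0060 (without NC 1), Abca1 from −0.036 (without NC 2) to 0.34 (without NC 3) and Abcg1 from −0.0058 (without NC 3) to 0.24 (without NC 1). With the trend removed, with or without the replicate block, Abca1 was at −0.011, Soat1 at −0.038 and Ldah at −0.049. With the trend removed and NC 3 left out, Msr1 was at −0.11, Soat1 at −0.042, Colec12 at −0.097, Scarb2 at −0.11, Ldah at −0.16, Bscl2 at 0.0025 and Acsl3 at −0.10. Cd36, Nr1h2, Npc1, Npc2 and Lipa kept their direction in all 18 alternatives. The causes were not tested. Depth limits Cd36 most, with as few as 44 fragments in a library.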
